A study of Drosophila melanogaster with 12 samples.

Results

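UDP-glycosyltransferases are encoded by a multigene family, and 35 of the 13919 genes in the count files carry a symbol of that family, Ugt followed by a digit. The genes were found by matching the FlyBase identifier, or else the CG number, to its symbol. The enzymes sit in the membrane of the endoplasmic reticulum and move a sugar from a UDP-sugar, in insects mostly UDP-glucose, onto small lipophilic molecules, which makes them more soluble in water and easier to excrete. Together with cytochromes P450, glutathione S-transferases and ABC exporters they make up the detoxification machinery of insects. The Malpighian tubule, the renal organ of the fly, is one of the main places where that machinery is active.

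RNA came from Malpighian tubules of 6-day-old adult Drosophila melanogaster females of 6 genotypes, kept at 20 °C under 14 h of light and 10 h of darkness. The parental lines SU26 and SU58 came from Sweden, and the strain label of the first is written S26. The remaining parental line, ZI418N, came from Zambia. The F1 hybrids were SU26xSU58, SU26xZI418N and SU58xZI418N, and no genotype received a treatment. Each genotype had 2 libraries, called biological replicates in the labels, and each line is 1 strain, so a difference between lines is a difference between those strains and not between populations. The study's title names allele-specific expression, but the counts used here do not separate alleles. In whole tubules, fewer cells of a type and less RNA per cell cannot be told apart.

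Total counts ranged from 30834175 to 43479929 per library, of which the family took 0.26% to 0.44%. All 9 principal cell markers (such as salt and Uro) were found, with 8 or 9 of them counted in a library and summed levels of 11072 to 20508 counts scaled to a common library total, called CPM, and Cad96Cb was the marker at 0 in 2 libraries. The 8 stellate cell markers had counts in every library, with sums of 1422 to 1970.5 CPM. Markers of other tissues set some libraries apart. The 8 eggshell markers summed to 300.4 CPM in SU58 replicate 1 and 28.3 CPM in SU26 replicate 1, against 0.425 to 8.12 CPM elsewhere. The 8 female germ line markers summed to 729 CPM in SU26xZI418N replicate 2 and 33.4 CPM in SU58xZI418N replicate 2, against 1.87 to 14.9 CPM elsewhere. The 6 fat body markers summed to 568 and 1032 CPM in ZI418N, 958 CPM in SU58 replicate 1 and 642 CPM in SU58xZI418N replicate 2, against 159.8 to 357.8 CPM elsewhere. The salivary gland marker LysP was found mainly in ZI418N, where the 2 salivary markers summed to 130.5 and 17.2 CPM, in SU58xZI418N replicate 1 with 74.3 CPM and in SU26xZI418N replicate 2 with 24.002 CPM. Sums for gut, muscle, hemocyte and neuron markers reached at most 23.5, 223.5, 12.1 and 28.8 CPM. What part these other tissues had in the results below was not tested. The main counts are given again without SU58 replicate 1 and SU26xZI418N replicate 2, which leaves both ZI418N libraries in.

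The family lies mostly in clusters. The 35 genes fall into 13 subfamilies, of which Ugt37 with 8 genes and Ugt35 with 6 are the largest, and 23 genes lie in 6 clusters when neighbours less than 40000 bases apart are joined. The largest cluster spans 51.3 kb on chromosome arm 3R, from 11126597 to 11177910 in the Ensembl BDGP6 annotation, and holds 10 genes that carried the earlier name Ugt86D: Ugt35C1, Ugt302K1, Ugt302E1, Ugt302C1, Ugt35E1, Ugt35E2, Ugt35B1, Ugt35A1, Ugt304A1 and Ugt303A1. A second cluster on 3R, from 23532945 to 23538908, holds Ugt303B3, Ugt303B1 and Ugt303B2 within 6.0 kb, and another, from 12739642 to 12743680, holds Ugt37A2 and Ugt37A3. On 2L, Ugt37C2, Ugt37E1 and Ugt37D1 lie from 16794211 to 16801584, and Ugt36F1, Ugt36D1 and Ugt36E1 from 18819344 to 18829059. On 2R, Ugt49B1 and Ugt49C1 lie from 21212880 to 21217779. The genome build of the files is not given in the sources used here, so these positions are those of the annotation. How reads that match several genes were counted is not given either, so the split of reads between closely related neighbours is uncertain.

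Tubule transcripts of the family came mainly from few genes. Divided by gene length, since levels of different genes can be compared only per length, Ugt35B1 led with a mean of 800.0 CPM per kb over the 12 libraries, or 40.8% of the summed level of the family. Ugt35C1 followed with 359.8 CPM per kb and 18.3%, and Ugt49B1 with 239.9 CPM per kb and 12.2%. Those 3 genes made up 71.4% of the summed level, and with Ugt301D1 at 194 and Ugt303B3 at 107 CPM per kb, the first 5 made up 86.8%. Ugt35B1 was first in every genotype, but the order after it changed with the genotype: in SU26, Ugt49B1 at 348 and Ugt301D1 at 184 CPM per kb exceeded Ugt35C1 at 156, and Ugt301D1 exceeded Ugt49B1 in ZI418N (181 against 149) and in SU58xZI418N (222 against 196). The Ugt35 subfamily as a whole held 63.9%, or 47.5% to 70.7% by library, while Ugt49 held 12.4%, Ugt301 9.92% and Ugt303 6.70%. At the other end, 11 of the 35 genes had a mean under 1 CPM, 9 had 1 to 10 CPM and 15 had at least 10 CPM. Ugt307A1 had no count in any library, and Ugt37E1, Ugt37C1, Ugt37A1, Ugt36F1 and Ugt305A1 had 5, 9, 16, 23 and 42 counts in the 12 libraries together. These 6 genes did not pass the filter on low counts, which left 29 members among 9302 tested genes, so nothing is said of differences in the 6.

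**Figure D1:**
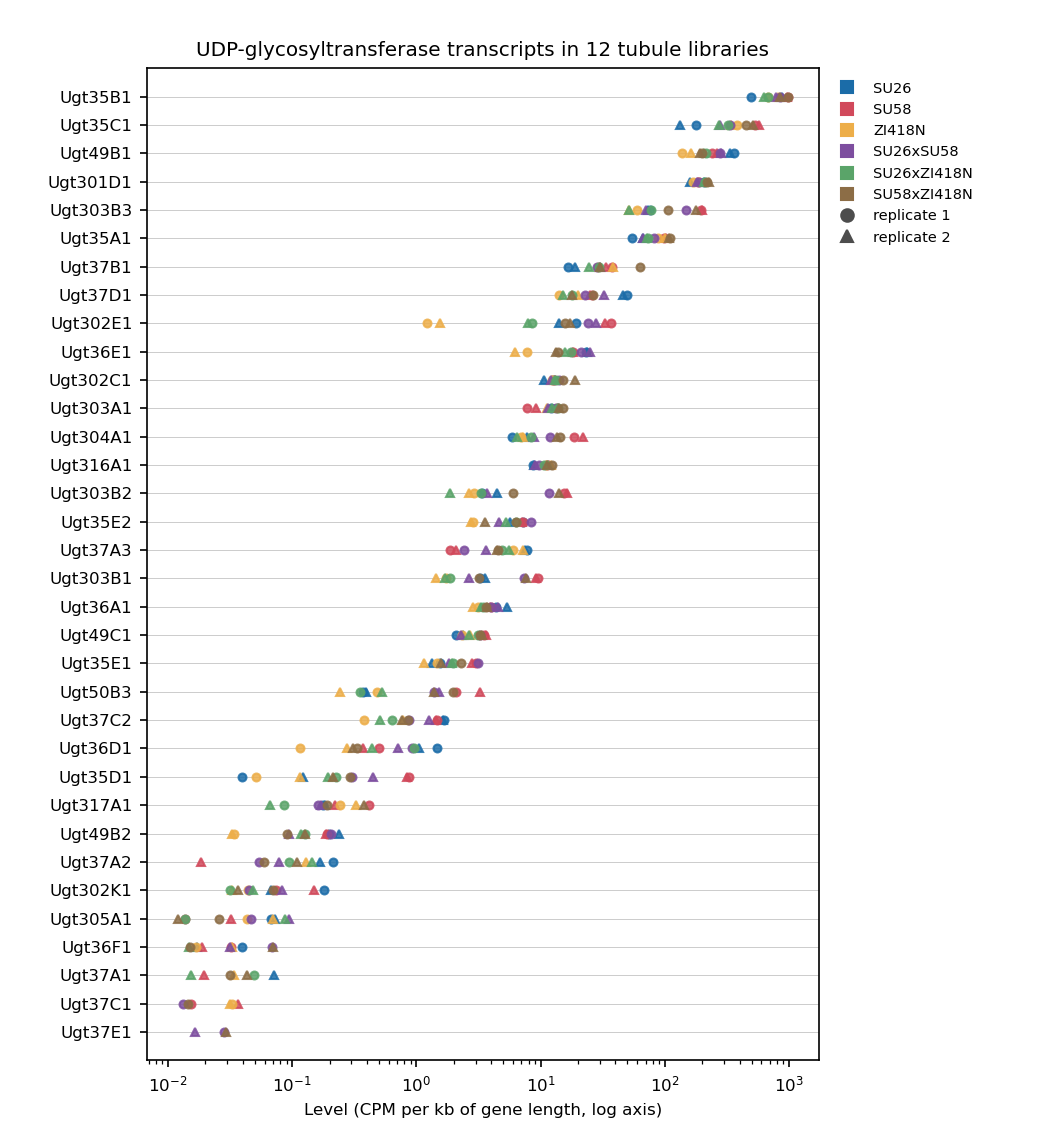
Level of each UDP-glycosyltransferase gene with counts, in CPM per kb of gene length on a log axis (horizontal), with 1 point per library coloured by genotype and genes ordered by level (vertical). Libraries at 0 are not drawn, and Ugt35B1, Ugt35C1 and Ugt49B1 lie at the top with means of 800.0, 359.8 and 239.9 CPM per kb.

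Ugt35B1, the most abundant member and earlier called Ugt86Db, was first described from the antenna, where it is strongly expressed. Its levels in CPM were 828 and 1474 in SU26, 1643 and 1613 in SU58, and 1133 and 1373 in ZI418N. In the hybrids they were 1406 and 1314 in SU26xSU58, 1129.85 and 1052 in SU26xZI418N, and 1657 and 1428 in SU58xZI418N. The libraries of SU58 lay above those of both other lines, and the replicates of SU26 lay farthest apart. The difference of SU58 from SU26, 0.50 ± 0.23 (SE) on the log2 scale, did not pass the test (quasi-likelihood F test of edgeR, Benjamini-Hochberg adjustment over 9302 genes, adjusted p = 0.166).

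The parental lines differed widely in this family. Between SU58 and SU26, 16 of 29 members passed an adjusted p of 0.05 (55.2%), against 17.6% of all 9302 tested genes. Of these, 12 were higher in SU58 (8.06% of all genes were) and 4 lower (9.56% of all genes). Between ZI418N and SU26, 12 of 29 members passed (41.4%, against 24% of all genes), with 3 higher in ZI418N (10.9% of all genes) and 9 lower (13.1%). Between ZI418N and SU58, 16 of 29 passed (55.2%, against 16.9%), with 2 higher in ZI418N (7.58% of all genes) and 14 lower (9.33%). The pairs share parental libraries, so these counts are not independent of each other. The median log2 difference of the members was 0.38 for SU58 against SU26, -0.21 for ZI418N against SU26 and -0.75 for ZI418N against SU58, while that of all tested genes was 0.01 in each of the 3 pairs.

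Across the pairs, 23 of 29 members passed in at least 1, against 35.1% of all genes. Ugt302E1, Ugt35C1 and Ugt49B1 passed in each of the 3. Among the 23 genes, SU58 had the highest mean in 13, SU26 in 9 and ZI418N in 1, Ugt316A1. ZI418N had the lowest mean in 14 genes, SU26 in 7 and SU58 in 2. The same order was not counted over all called genes, so these counts have no share to set beside them. Members that passed in none of the pairs were Ugt35B1, Ugt301D1, Ugt302C1, Ugt302K1, Ugt317A1 and Ugt37A2. The summed CPM of the family were highest in SU58, where they came to 4258 and 4337, while SU26 had 2746 and 3194, and ZI418N had 2843 and 3133. Without Ugt35B1 the sums were 2615 and 2724 for SU58, then 1919 and 1720.0 for SU26, then 1710.0 and 1760.0 for ZI418N.

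These counts rest on 2 libraries per line, and leaving out any library of SU58 or SU26 lowered the count of SU58 against SU26 from 16 to between 7 and 9. It was 7 without SU58 replicate 1, 8 without SU58 replicate 2, 8 without SU26 replicate 1 and 9 without SU26 replicate 2. The count over all genes fell with it, from 1639 to 492, 579, 1150 and 791. For ZI418N against SU58, leaving out any library of SU58 or ZI418N lowered both the 16 members and the 1573 genes called in all. Without SU58 replicate 1, which held eggshell transcripts, and SU26xZI418N replicate 2, which held germ line transcripts, 7 members passed for SU58 against SU26, 12 for ZI418N against SU26 and 9 for ZI418N against SU58. In those fits 618 genes in all passed for SU58 against SU26 and 860 for ZI418N against SU58.

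**Figure D2:**
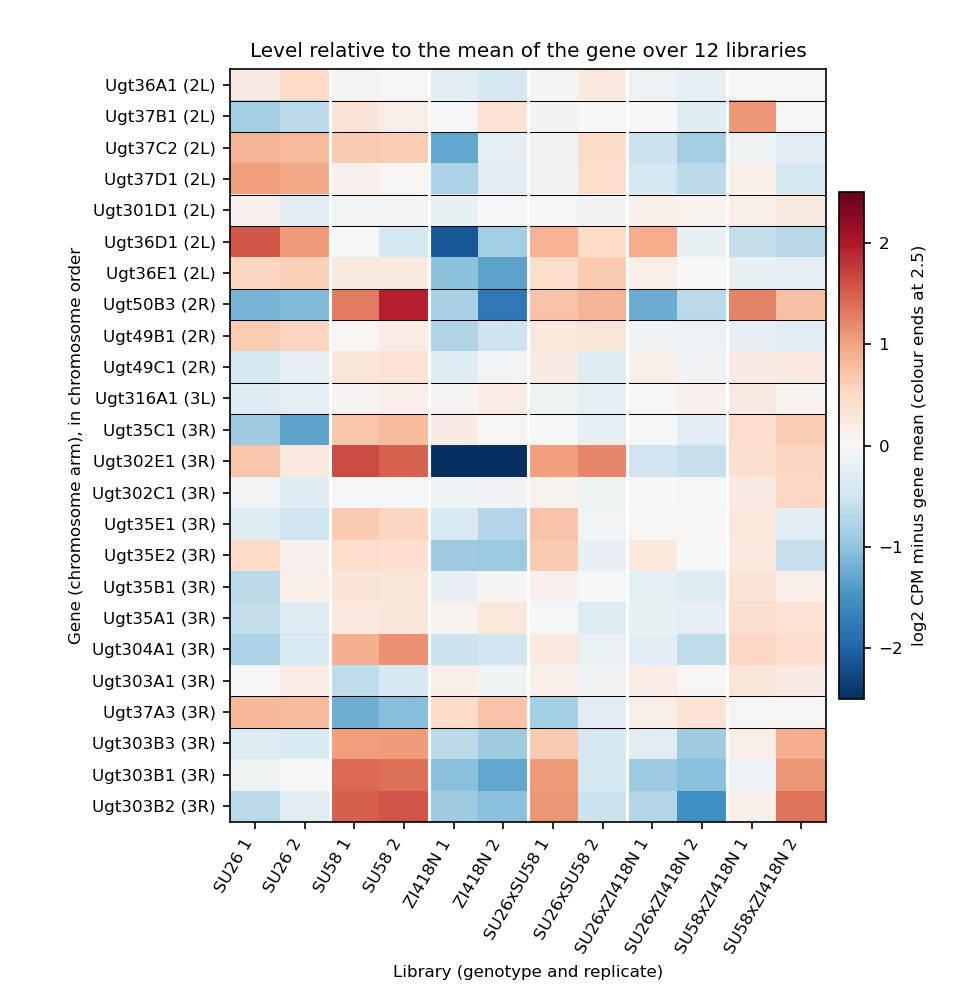
Level of the 24 members whose mean over the libraries reached 1 CPM, by library (horizontal), as log2 CPM minus the mean of the gene over the 12 libraries (colour), with genes in chromosome order (vertical) and lines between clusters. Ugt302E1 is lowest in the 2 ZI418N libraries, at 1.96 and 2.49 CPM, and the 3 Ugt303B genes are high together in SU58.

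Within the 3R cluster of 10 genes the members did not move as a block. For SU58 against SU26, 5 of the 10 were higher and 1 was lower, against 8.06% and 9.56% of all genes. For ZI418N against SU26, 2 were higher and 2 lower (10.9% and 13.1% of all genes), and for ZI418N against SU58, 1 was higher and 5 lower (7.58% and 9.33%). By subfamily, 4 of 6 Ugt35 genes were higher in SU58 than in SU26 (8.06% of all genes) and 4 of 6 were lower in ZI418N than in SU58 (9.33%). Among the 5 Ugt37 genes tested, SU58 had 1 higher (8.06% of all genes) and 2 lower (9.56%) than SU26. Of the 3 Ugt36 genes tested, none passed between SU58 and SU26, while ZI418N lay below SU26 in all 3 (13.1% of all genes were lower). Groups of 10 genes or fewer give coarse shares, and no test of a group was made.

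Ugt35C1, earlier called Ugt86Dd, is known from Drosophila melanogaster larvae as a gene whose natural variants are linked to nicotine resistance. Its levels in CPM were 299 and 221 in SU26, 895 and 954 in SU58, and 642 and 571 in ZI418N. The hybrids had 559.8 and 467 in SU26xSU58, 538 and 454 in SU26xZI418N, and 753 and 859 in SU58xZI418N. The lines did not overlap and stood in the order SU26, ZI418N, SU58. SU58 exceeded SU26 by 3.56-fold (log2 1.83 ± 0.17 SE, adjusted p = 0.00018). ZI418N exceeded SU26 by 2.33-fold (log2 1.22 ± 0.16, adjusted p = 0.00093). ZI418N lay below SU58 by 1.53-fold (log2 -0.61 ± 0.16, adjusted p = 0.0323), a call that was lost without any one library of SU58 or ZI418N (adjusted p up to 0.173 over the 17 alternative settings). Ugt35A1, elsewhere in the cluster, had levels in CPM of 97.8 and 118 in SU26, 176 and 184 in SU58, and 158 and 178 in ZI418N. Among the parental lines Ugt35A1 was lowest in SU26, by 1.66-fold against SU58 (adjusted p = 0.00425) and 1.55-fold against ZI418N (adjusted p = 0.00573).

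Ugt302E1, earlier called Ugt86Dc and in the same cluster, had the widest range of the members with at least 1 CPM. Its levels in CPM were 30.6 and 22.5 in SU26, 59.1 and 53.0 in SU58, and 1.96 and 2.49 in ZI418N. They were 38.6 and 44.4 in SU26xSU58, 13.7 and 12.6 in SU26xZI418N, and 24.98 and 27.6 in SU58xZI418N. No 2 parental lines overlapped. ZI418N lay 25.1-fold below SU58 (log2 -4.65 ± 0.19 SE, adjusted p = 1.58e-06) and 11.9-fold below SU26 (log2 -3.57 ± 0.19, adjusted p = 5.62e-06). SU58 lay 2.11-fold above SU26 (log2 1.08 ± 0.16, adjusted p = 0.00259). Its neighbour Ugt302C1 passed in no pair, with means of 23.2 CPM in SU26, 25.7 CPM in SU58 and 24.7 CPM in ZI418N.

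Ugt304A1, in the same cluster, was high in SU58. Its levels in CPM were 10.2 and 13.4 in SU26, 32.2 and 38.3 in SU58, and 12.03 and 12.5 in ZI418N. The hybrids had 20.7 and 15.5 in SU26xSU58, 14.4 and 11.2 in SU26xZI418N, and 24.9 and 23.6 in SU58xZI418N. SU26 and ZI418N overlapped and the SU58 libraries stood above both. SU58 exceeded SU26 by 2.99-fold (log2 1.58 ± 0.19 SE, adjusted p = 0.000853), and ZI418N lay 2.88-fold below SU58 (log2 -1.52 ± 0.19, adjusted p = 0.000721). Ugt303A1, the next gene in the cluster, went the other way, with 24.6 and 28.1 CPM in SU26, 15.8 and 18.5 CPM in SU58 and 27.8 and 22.9 CPM in ZI418N. SU58 lay 1.54-fold below SU26 in Ugt303A1 (adjusted p = 0.0154), a call lost when SU26 replicate 2 or SU58 replicate 1 was left out (adjusted p up to 0.149).

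Ugt35E1 and Ugt35E2 lie side by side in the cluster. Ugt35E1 had 2.45 and 2.13 CPM in SU26, 4.79 and 4.42 CPM in SU58, and 2.33 and 1.83 CPM in ZI418N. In the hybrids, Ugt35E1 had 4.94 and 2.90 CPM in SU26xSU58, 3.14 and 3.09 CPM in SU26xZI418N, and 3.61 and 2.4999 CPM in SU58xZI418N. SU58 stood above both other lines, 2.01-fold above SU26 (log2 1.008 ± 0.30 SE, adjusted p = 0.0467) and with ZI418N 2.21-fold below it (log2 -1.15 ± 0.30, adjusted p = 0.0294). Ugt35E2 had 12.7 and 9.88 CPM in SU26, 12.6 and 12.4 CPM in SU58, and 4.94 and 4.82 CPM in ZI418N. Ugt35E2 in the hybrids had 14.5 and 8.002 CPM in SU26xSU58, 11.1 and 9.24 CPM in SU26xZI418N, and 10.98 and 6.20 CPM in SU58xZI418N. Here ZI418N stood below both other lines, 2.31-fold below SU26 (log2 -1.21 ± 0.32, adjusted p = 0.0243) and 2.56-fold below SU58 (log2 -1.35 ± 0.32, adjusted p = 0.0195). Both calls of Ugt35E1, and that of Ugt35E2 in ZI418N against SU58, were lost without any one library of the lines compared. That of Ugt35E1 in SU58 against SU26 was lost in 10 of 17 alternative settings. Among them were no filter and leaving out either library of ZI418N or SU58xZI418N. The call of Ugt35E2 in ZI418N against SU26 was lost without SU26 replicate 1 or either ZI418N library.

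The 3 Ugt303B genes, which lie within 6.0 kb of each other, were high together in SU58. Ugt303B3, the most abundant, had 133 and 129 CPM in SU26, 347 and 349.8 CPM in SU58, and 106 and 90.6 CPM in ZI418N. Ugt303B2 had 6.31 and 8.32 CPM in SU26, 28.4 and 30.1 CPM in SU58, and 5.45 and 4.90 CPM in ZI418N, and Ugt303B1 had 5.72 and 6.28 CPM, 16.6 and 16.2 CPM, and 3.04 and 2.52 CPM in the same order. In each of the 3 genes the SU58 libraries stood apart above those of both other lines.

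Against SU26, SU58 was 2.66-fold higher in Ugt303B3 (log2 1.41 ± 0.35 SE, adjusted p = 0.0248) and 3.99-fold higher in Ugt303B2 (log2 2.00 ± 0.54, adjusted p = 0.0345). Ugt303B1 differed by log2 1.45 ± 0.47 and did not pass (adjusted p = 0.0657). ZI418N lay below SU58 by 3.54-fold in Ugt303B3 (log2 -1.82 ± 0.36, adjusted p = 0.00805), 5.65-fold in Ugt303B2 (log2 -2.497 ± 0.55, adjusted p = 0.0149) and 5.91-fold in Ugt303B1 (log2 -2.56 ± 0.50, adjusted p = 0.00779). The calls of SU58 against SU26 in Ugt303B3 and Ugt303B2 were lost without any one library of those lines, and that in Ugt303B2 also without either ZI418N library. For ZI418N against SU58, Ugt303B3 was lost without ZI418N replicate 2 (0.0711), Ugt303B1 without either ZI418N library (up to 0.0699) and Ugt303B2 without any one library of either line (up to 0.102).

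In 2 hybrids the replicates of the Ugt303B genes differed together. SU26xSU58 had 264 and 125 CPM of Ugt303B3, 13.0 and 4.68 CPM of Ugt303B1 and 21.8 and 6.91 CPM of Ugt303B2, so that replicate 1 exceeded replicate 2 by 2.10-fold, 2.78-fold and 3.15-fold. Of all genes whose mean over the 12 libraries reached 1 CPM, 3.11% differed 2-fold or more between the replicates of that genotype. SU58xZI418N had 187 and 314 CPM of Ugt303B3, 5.62 and 13.4 CPM of Ugt303B1 and 11.2 and 25.9 CPM of Ugt303B2, so that replicate 2 exceeded replicate 1 by 1.67-fold, 2.39-fold and 2.32-fold, against 3.08% of genes at 2-fold or more. SU26xZI418N had 137 and 90.6 CPM, 3.30 and 3.01 CPM, and 6.10 and 3.46 CPM of the same genes. The higher replicate of SU26xSU58 lay nearer the SU58 level and the lower one nearer the SU26 level, and a hybrid mean of these genes therefore describes neither library.

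**Figure D3:**
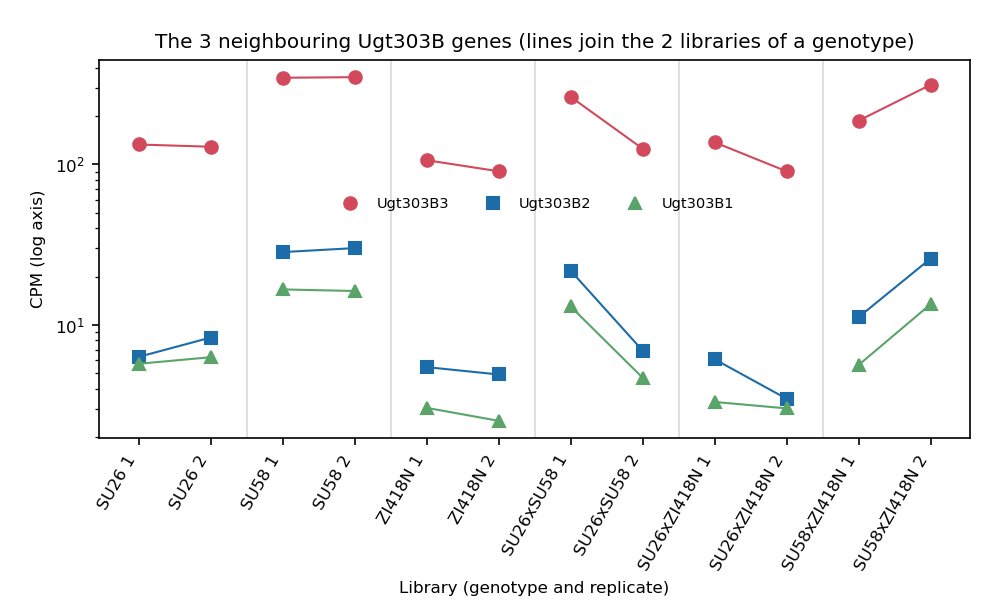
Levels of Ugt303B3, Ugt303B1 and Ugt303B2 in CPM (vertical, log axis) in each of the 12 libraries (horizontal), with lines joining the replicates of a genotype. SU58 lies highest in each gene, at 347 and 349.8 CPM for Ugt303B3, and the replicates of SU26xSU58, at 264 and 125 CPM, lie apart in the 3 genes.

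Ugt49B1, on 2R, was an abundant member, highest in SU26. Its levels in CPM were 633 and 589.9 in SU26, 421 and 460.4 in SU58, and 239.8 and 284 in ZI418N. The hybrids had 487 and 502 in SU26xSU58, 380.04 and 364 in SU26xZI418N, and 350.3 and 338 in SU58xZI418N. The lines did not overlap, in the order ZI418N, SU58, SU26. ZI418N lay 2.33-fold below SU26 (log2 -1.22 ± 0.10 SE, adjusted p = 7.22e-05) and 1.68-fold below SU58 (log2 -0.75 ± 0.10, adjusted p = 0.0011). SU58 lay 1.39-fold below SU26 (log2 -0.47 ± 0.10, adjusted p = 0.0131), which was lost on leaving out SU26 replicate 1 or either SU58 library (adjusted p up to 0.137). Ugt49B1 shares 90 exon bases with CG44245 on the other strand, and the strand setting of the counting is not given, so reads there cannot be assigned.

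Ugt36E1 and Ugt36D1, neighbours on 2L, had their lowest parental means in ZI418N. Ugt36E1 had 44.0 and 45.2 CPM in SU26, 34.9 and 35.04 CPM in SU58, and 14.8 and 11.8 CPM in ZI418N. In hybrids, Ugt36E1 had 40.5 and 47.4 CPM in SU26xSU58, 33.8 and 29.8 CPM in SU26xZI418N, and 26.5 and 25.3 CPM in SU58xZI418N. ZI418N stood far below, 3.34-fold under SU26 (log2 -1.74 ± 0.13 SE, adjusted p = 3.22e-05) and 2.62-fold under SU58 (log2 -1.39 ± 0.13, adjusted p = 0.00012). Ugt36D1 had 3.24 and 2.33 CPM in SU26, 1.10 and 0.827 CPM in SU58, and 0.255 and 0.609 CPM in ZI418N. The hybrid levels of Ugt36D1 were 2.03 and 1.57 CPM in SU26xSU58, 2.12 and 0.971 CPM in SU26xZI418N, and 0.737 and 0.684 CPM in SU58xZI418N. ZI418N lay 6.39-fold below SU26 in Ugt36D1 (log2 -2.68 ± 0.51, adjusted p = 0.00541). The difference of ZI418N from SU58 in Ugt36D1 did not pass (log2 -1.15 ± 0.50, adjusted p = 0.16), with 9 and 22 counts in ZI418N. Ugt36E1 shares 48 exon bases with CG17597 on the other strand. Ugt36A1, also known as Dorothy, whose enhancer marks blood-forming organs of the embryo and larva, was 1.62-fold lower in ZI418N than in SU26 (adjusted p = 0.0057), with means of 6.93 and 11.2 CPM, and shares 400 exon bases with CG15418 on the other strand.

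In the Ugt37 subfamily the direction differed from gene to gene. Ugt37A3 had 12.9 and 12.6 CPM in SU26, 3.12 and 3.47 CPM in SU58, and 10.05 and 11.97 CPM in ZI418N. The hybrids had 4.06 and 6.03 CPM of Ugt37A3 in SU26xSU58, 8.11 and 9.29 CPM in SU26xZI418N, and 7.52 and 7.48 CPM in SU58xZI418N. SU58 stood apart below the other lines, 3.86-fold under SU26 (log2 -1.95 ± 0.20 SE, adjusted p = 0.000302), and ZI418N exceeded SU58 by 3.34-fold (log2 1.74 ± 0.19, adjusted p = 0.000394). Ugt37B1 had 29.0 and 33.0 CPM in SU26, 65.7 and 58.5 CPM in SU58, and 50.1 and 67.2 CPM in ZI418N, with SU26 below both. The difference of ZI418N from SU26 in Ugt37B1 did not pass (log2 0.92 ± 0.30, adjusted p = 0.0512). The hybrid levels of Ugt37B1 were 49.2 and 52.8 CPM in SU26xSU58, 51.8 and 42.4 CPM in SU26xZI418N, and 110.5 and 52.4 CPM in SU58xZI418N. The 2.00-fold difference of SU58 from SU26 in Ugt37B1 (log2 1.00 ± 0.30, adjusted p = 0.0474) was lost in 11 of 17 alternative settings, among them without each of the 6 parental libraries (adjusted p up to 0.216).

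Ugt37D1 and Ugt37C2, neighbours on 2L earlier called Ugt36Bc and Ugt36Ba, had their lowest parental means in ZI418N. Ugt37D1 had 97.1 and 90.6 CPM in SU26, 51.1 and 48.9 CPM in SU58, and 27.3 and 38.8 CPM in ZI418N. In hybrids, Ugt37D1 had 44.3 and 63.7 CPM in SU26xSU58, 34.7 and 29.4 CPM in SU26xZI418N, and 51.8 and 34.8 CPM in SU58xZI418N. The difference of ZI418N from SU58 in Ugt37D1 did not pass the test (log2 -0.60 ± 0.24 SE, adjusted p = 0.123). SU26 stood above both other lines, with ZI418N 2.84-fold lower (log2 -1.51 ± 0.24 SE, adjusted p = 0.00225) and SU58 1.88-fold lower (log2 -0.91 ± 0.24, adjusted p = 0.029, lost without any one library of SU26 or SU58, with adjusted p up to 0.151). Ugt37C2 had 3.01 and 2.94 CPM in SU26, 2.64 and 2.61 CPM in SU58, and 0.681 and 1.41 CPM in ZI418N. The hybrids had 1.57 and 2.29 CPM of Ugt37C2 in SU26xSU58, 1.16 and 0.921 CPM in SU26xZI418N, and 1.55 and 1.37 CPM in SU58xZI418N. ZI418N lay 2.83-fold below SU26 (log2 -1.50 ± 0.36, adjusted p = 0.0158) and 2.498-fold below SU58 (log2 -1.32 ± 0.36, adjusted p = 0.0352) in Ugt37C2. In Ugt37C2 the call against SU26 was lost without ZI418N replicate 1 or either SU26 library. That against SU58 was lost in 8 of 17 alternative settings, among them without ZI418N replicate 1 or either library of SU26, SU58 or SU58xZI418N.

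Ugt50B3, on 2R, was high in SU58. Its levels in CPM were 1.02 and 1.07 in SU26, 5.65 and 8.87 in SU58, and 1.31 and 0.665 in ZI418N. The hybrids had 3.78 and 4.15 in SU26xSU58, 0.967 and 1.44 in SU26xZI418N, and 5.41 and 3.82 in SU58xZI418N. SU58 and its hybrids did not overlap with the genotypes that lack an SU58 parent. SU58 exceeded SU26 by 6.92-fold (log2 2.79 ± 0.39 SE, adjusted p = 0.00181), and ZI418N lay 7.35-fold below SU58 (log2 -2.88 ± 0.39, adjusted p = 0.00113). Among members under 1 CPM, Ugt35D1 had 2 and 7 counts in SU26, 54 and 44 in SU58 and 3 and 7 in ZI418N, and passed for SU58 against SU26 (adjusted p = 0.00378) and ZI418N against SU58 (adjusted p = 0.003). Ugt49B2 had 2 counts in each ZI418N library, against 10 and 14 in SU26 and 12 and 10 in SU58, and passed in both pairs with ZI418N (adjusted p = 0.00811 and 0.0163). Both calls of Ugt49B2 were lost without either ZI418N library, and that against SU58 also in DESeq2 and without either SU58 library, or without SU58 replicate 1 and SU26xZI418N replicate 2 together (adjusted p up to 0.0665 against SU26 and 0.107 against SU58).

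**Figure D4:**
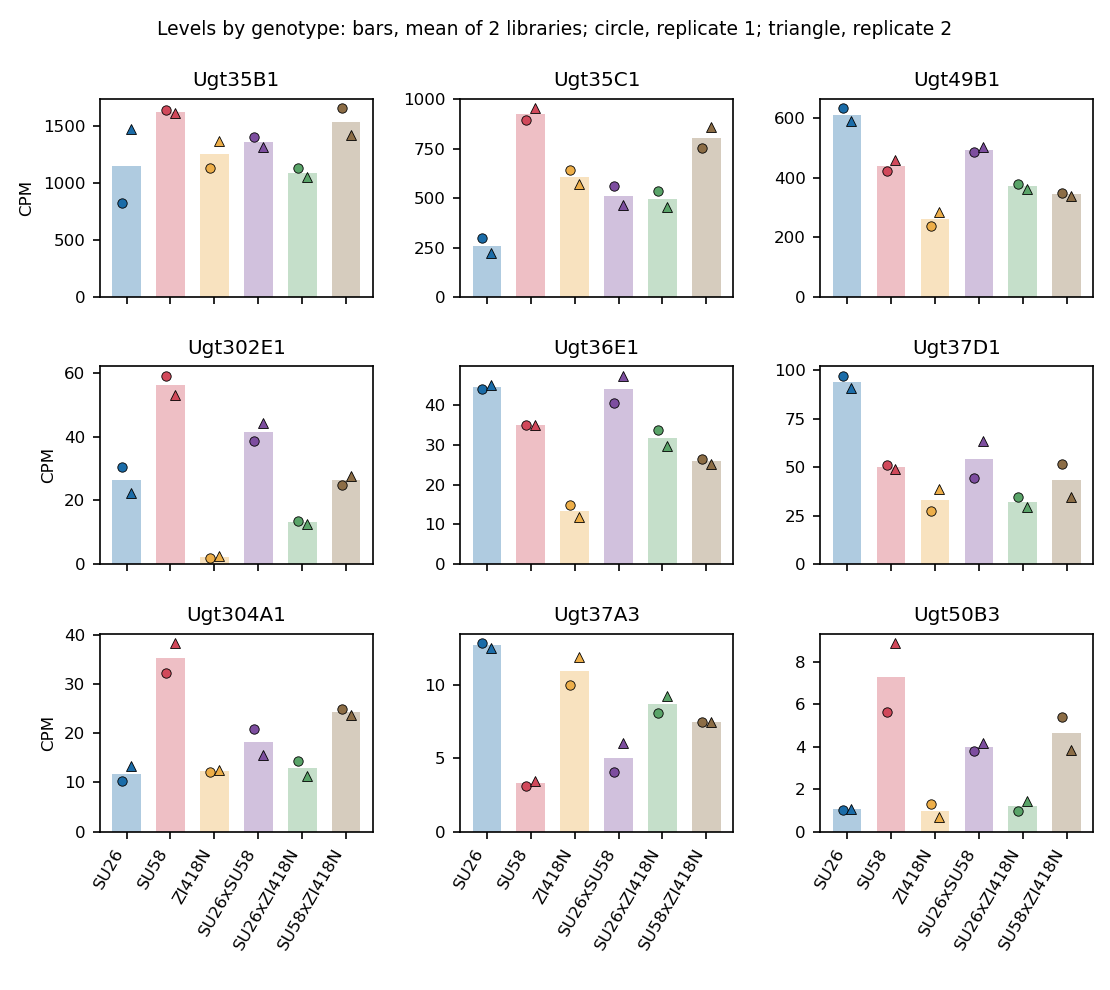
Levels of 9 members in CPM (vertical, from 0) by genotype (horizontal), with bars for the mean of 2 libraries, circles for replicate 1 and triangles for replicate 2. Ugt302E1 is lowest in ZI418N at 1.96 and 2.49 CPM, Ugt37A3 is lowest in SU58 at 3.12 and 3.47 CPM, and Ugt35C1 is lowest in SU26 at 299 and 221 CPM.

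F1 hybrids carry a genome copy of each parent, and their levels were compared with the mean of the parents on the log2 scale. In SU26xSU58 no member passed, as against 0.108% of all genes, and no member had an unadjusted p under 0.05 in edgeR or passed in DESeq2. In SU26xZI418N, 1 of 29 members passed (3.45%, against 5% of all genes) and in SU58xZI418N also 1 (3.45%, against 0.387%). For SU26xZI418N against the mean of its parents, the 465 genes behind the 5% became 1773 without SU26xZI418N replicate 1, 25 without its replicate 2 and 68 with the replicate block, with 1, 0 and 0 members. Leaving out any one of the other libraries gave 30 to 84 genes and 0 or 1 members. Both times the gene was Ugt302E1, which lay above the parental mean by log2 0.77 ± 0.14 SE in SU26xZI418N (adjusted p = 0.0442) and by log2 1.23 ± 0.14 in SU58xZI418N (adjusted p = 0.0054). On the CPM scale the same hybrids did not exceed the parental mean, with 13.2 against 14.4 CPM in SU26xZI418N (ratio 0.914) and 26.3 against 29.1 CPM in SU58xZI418N (ratio 0.902), and SU26xSU58 had 41.5 against 41.3 CPM (ratio 1.00). The call in SU26xZI418N was lost in 12 of 17 alternative settings (adjusted p up to 0.27), among them without SU26 replicate 2, either ZI418N library or SU26xZI418N replicate 2, and that in SU58xZI418N was lost without SU58xZI418N replicate 2 (adjusted p = 0.0906).

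Over the 24 members with a mean of at least 1 CPM, the median ratio of the hybrid to the parental mean in CPM was 0.952 in SU26xSU58, 1.012 in SU26xZI418N and 1.055 in SU58xZI418N. The hybrid mean lay between those of the parents in 21, 12 and 18 of the 24. The 24 include members that passed in no pair of parental lines, such as Ugt301D1 and Ugt302C1. No matching share over all genes was counted. The lowest ratio was 0.505, for Ugt37D1 in SU26xZI418N, where the difference from the parental mean did not pass (log2 -0.80 ± 0.21 SE, adjusted p = 0.0589). No member passed as outside both parents in a hybrid, nor did any other tested gene (0% of all genes). Without SU26xZI418N replicate 1, 872 genes but still 0 members passed as outside both parents in SU26xZI418N. At an unadjusted p under 0.05 there were 0, 2 and 1 members outside in SU26xSU58, SU26xZI418N and SU58xZI418N, among 33, 822 and 41 genes in all, and DESeq2 was not run for that test. Those 3 were Ugt317A1 and Ugt35D1 in SU26xZI418N and Ugt302C1 in SU58xZI418N, named after their values were seen.

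For members that were called between the parents and at least 2-fold apart, the place of the hybrid was expressed on the log2 scale as 0 at the first parent and 1 at the second. In SU26xSU58 the 10 such members had a median of 0.622 and lay between the parents in 10 cases. The same median over all 644 such genes was 0.609, with 93.5% between. In SU26xZI418N the 9 members had a median of 0.317, against 0.618 over 881 genes, and 7 lay between, against 83.5%. Ugt37D1 at 1.03 and Ugt37C2 at 1.009 lay just beyond ZI418N. In SU58xZI418N the 13 members had a median of 0.326, against 0.46 over 770 genes, and 13 lay between, against 94.4%. Leaving out SU26xZI418N replicate 1 moved the median of SU26xZI418N to 0.567, and leaving out SU26xSU58 replicate 1 moved that of SU26xSU58 to 0.507. On the log2 scale, a hybrid at the mean CPM of its parents lies nearer the higher parent. Members called at any fold change for ZI418N against SU26 were mostly lower in ZI418N (9 lower, 3 higher). All called genes were less one-sided (1221 lower, 1014 higher). For ZI418N against SU58 the counts were 14 lower and 2 higher, against 868 and 705. The medians of members and of all genes thus come from sets of unlike direction. What part this had was not tested, and no test was made of these positions.

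Hybrids that share a parent differ in the other parent, so each parental difference can be set beside a difference between hybrids whose means come from other libraries. The 2 are not fully separate, since the 12 libraries share the filter, the scaling and the estimate of the spread: leaving out 1 hybrid library gave 15 to 17 members called for SU58 against SU26. SU58xZI418N against SU26xZI418N sets SU58 against SU26 in hybrids that both carry ZI418N, and 13 of the 16 members called between the parents had the same sign there (81.2%, against 72.4% of all genes called between the parents). For ZI418N against SU26, seen again in SU58xZI418N against SU26xSU58, 12 of 12 members had the same sign, against 88.9%. For ZI418N against SU58, seen again in SU26xZI418N against SU26xSU58, 16 of 16 had the same sign, against 93.1%. The members with the opposite sign were Ugt303A1, Ugt35E1 and Ugt37D1, in the first of these comparisons, with hybrid log2 differences of 0.15, -0.03 and 0.43 and none past the test. The 3 hybrid comparisons share libraries with each other. The hybrid difference divided by the parental one had a median of 0.336, 0.376 and 0.346 over the called members, and of 0.23, 0.351 and 0.482 over all called genes.

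Few of these hybrid differences passed the test on their own. With the same sign as between the parents, 4 of 16 (25%), 3 of 12 (25%) and 3 of 16 (18.8%) members passed in the 3 comparisons, against 9.7%, 11.5% and 24.8% of all genes called between the parents. In SU58xZI418N against SU26xZI418N, 4 of 29 members passed (13.8%, against 2.06% of all genes) and each was higher in SU58xZI418N. They were Ugt302E1 (log2 1.00 ± 0.16 SE, adjusted p = 0.0177), Ugt304A1 (log2 0.92 ± 0.19, adjusted p = 0.0414), Ugt50B3 (log2 1.93 ± 0.37, adjusted p = 0.0356) and Ugt35A1 (log2 0.58 ± 0.12, adjusted p = 0.0474). In SU58xZI418N against SU26xSU58, 3 passed (10.3%, against 2.89%), with Ugt35A1 higher (log2 0.56 ± 0.12, adjusted p = 0.0467) and Ugt36E1 (log2 -0.76 ± 0.12, adjusted p = 0.0125) and Ugt49B1 (log2 -0.52 ± 0.10, adjusted p = 0.0257) lower. In SU26xZI418N against SU26xSU58, 3 passed (10.3%, against 4.73%), with Ugt37A3 higher (log2 0.79 ± 0.19, adjusted p = 0.0496) and Ugt302E1 (log2 -1.66 ± 0.16, adjusted p = 0.000853) and Ugt50B3 (log2 -1.71 ± 0.37, adjusted p = 0.0351) lower. The call of Ugt302E1 in the last comparison held in 17 of 17 alternative settings (adjusted p up to 0.0225), and each of the other 9 was lost in at least 3. The shares over all genes moved as well: without SU26xZI418N replicate 1 the 192 genes of SU58xZI418N against SU26xZI418N became 1537 and the 440 of SU26xZI418N against SU26xSU58 became 1903, and without its replicate 2 they became 82 and 196. Without SU58 replicate 1 and SU26xZI418N replicate 2 the counts of 4, 3 and 3 became 0, 1 and 1. Leaving out 1 library gave 0 to 5, 0 to 5 and 1 to 5, where 0 was reached without SU26xZI418N replicate 2 or SU58xZI418N replicate 1 in the first, and without SU26xSU58 replicate 2 or SU58xZI418N replicate 1 in the second.

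**Figure D5:**
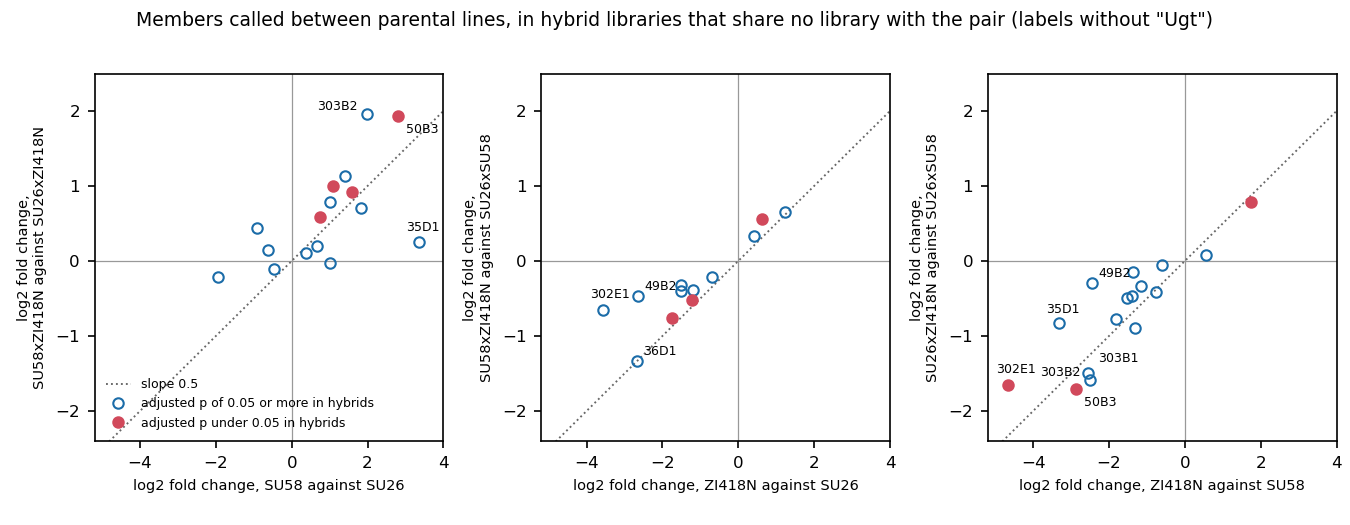
Members called between a pair of parental lines, with the parental log2 fold change (horizontal) against the log2 fold change between the hybrids that share no library with that pair (vertical), filled where the adjusted p in hybrids is under 0.05, and a dotted line of slope 0.5. In the 3 panels 13 of 16, 12 of 12 and 16 of 16 members have the same sign in both.

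Genes that supply or follow the reaction were counted beside the family. Their calls, unlike those of the members, were not checked in the alternative settings. The shares of all genes called, to set beside the counts of these 4 short lists, were 17.6% for SU58 against SU26, 24% for ZI418N against SU26 and 16.9% for ZI418N against SU58. Among 8 genes of UDP-sugar supply, 2 were higher and 2 lower in SU58 than in SU26, 2 higher and 1 lower in ZI418N than in SU26, and 3 higher and 2 lower in ZI418N than in SU58. Galk, the galactokinase, had 511 and 494 CPM in SU26, 739 and 711 CPM in SU58, and 1090.1 and 965 CPM in ZI418N, and was 2.04-fold higher in ZI418N than in SU26 (adjusted p = 0.000262). Sgl, which oxidises UDP-glucose to UDP-glucuronic acid, had 321 and 352 CPM in SU26, 328 and 335 CPM in SU58, and 209.8 and 221 CPM in ZI418N, and was 1.54-fold lower in ZI418N than in SU58 (adjusted p = 0.00163). UGP, which makes UDP-glucose, was 1.86-fold higher in ZI418N than in SU58 (adjusted p = 0.00504) and 1.52-fold lower in SU58 than in SU26 (adjusted p = 0.0302). Hex-A, a hexokinase, was 1.94-fold lower in SU58 than in SU26 (adjusted p = 0.00233). Pgm1 was 1.37-fold higher in SU58 than in SU26 (adjusted p = 0.0135), Galt 1.38-fold higher in ZI418N than in SU26 (adjusted p = 0.0161) and Hex-C 1.355-fold lower in ZI418N than in SU58 (adjusted p = 0.00932). The list held called genes of both directions in each pair, and its median log2 difference was 0.09, 0.10 and 0.06 in the 3 pairs.

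Of 3 genes of UDP-sugar transport that could be matched, 1, 2 and 1 were lower and none higher in the 3 pairs, in the order SU58 against SU26, ZI418N against SU26 and ZI418N against SU58. The transporter frc had 332 and 335 CPM in SU26, 277 and 279 CPM in SU58, and 189 and 173 CPM in ZI418N, and was 1.84-fold lower in ZI418N than in SU26 (adjusted p = 0.000275). Efr, another nucleotide-sugar transporter, was 1.26-fold lower in SU58 (adjusted p = 0.0285) and 1.25-fold lower in ZI418N (adjusted p = 0.0255) than in SU26. Of 6 tested regulators of detoxification genes, Keap1, the inhibitor of the transcription factor cnc, was 2.55-fold lower in SU58 than in SU26 (adjusted p = 0.0192) and 2.84-fold higher in ZI418N than in SU58 (adjusted p = 0.0112). Keap1 had 37.5 and 21.3 CPM in SU26, 10.1 and 13.0 CPM in SU58, and 29.3 and 36.3 CPM in ZI418N, and no other regulator passed in a pair.

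Of 4 ABC exporters, which carry conjugates and other compounds out of cells, 1 was higher and 3 were lower in SU58 than in SU26, 3 were lower in ZI418N than in SU26, and 2 were higher and 1 lower in ZI418N than in SU58. MRP had 1362 and 1075 CPM in SU26, 502 and 482 CPM in SU58, and 766 and 664 CPM in ZI418N, and was 2.48-fold lower in SU58 than in SU26 (adjusted p = 0.000614). Mdr49 had 558 and 588 CPM in SU26, 732 and 812 CPM in SU58, and 334 and 367 CPM in ZI418N, and was 2.20-fold lower in ZI418N than in SU58 (adjusted p = 5.76e-05). Mdr65 was 2.74-fold lower in ZI418N than in SU26 (adjusted p = 0.00296). Mdr50, at 0.29 to 3.92 CPM in the parental libraries, was 7.82-fold lower in SU58 than in SU26 (adjusted p = 0.00704) and 5.01-fold higher in ZI418N than in SU58 (adjusted p = 0.0183). SU58 had less MRP, Mdr65 and Mdr50 RNA than SU26 and more Mdr49 RNA. Of the transferase genes, 12 were higher and 4 lower in SU58 than in SU26, against 8.06% and 9.56% of all genes. Whether the exporter and transferase differences are related was not tested.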

How the data were processed

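RNA-seq of Malpighian tubules was deposited as 1 table per library, 12 in all. Per the file headers, the authors gave counts per gene with its identifiers, chromosome and length, and the values are whole numbers with no normalization. Per the labels' protocols, poly-A RNA was sequenced as paired reads of 125 bases. Not given in the sources used here are the aligner, counting tool, strand setting and genome build. Of the 13919 genes, 13749 were named by identifier, 146 by CG number and 24 not at all.

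Counts were filtered with edgeR's filterByExpr (9302 genes left), scaled by TMM and fitted with 1 mean per genotype over the 12 libraries in edgeR 4.0.16 (R 4.3.3), with quasi-likelihood tests and Benjamini-Hochberg adjustment over the 9302 genes at 0.05. The common biological coefficient of variation was 22.5%, with 6 residual and 3.08 prior degrees of freedom. SE is the absolute log2 difference divided by the square root of F. With 2 libraries per genotype, the spread between them limits the precision of well-counted genes. At few counts, such as 2 of Ugt49B2 in each ZI418N library, counting error limits it too. CPM use TMM-scaled totals. On simulated counts for SU58 against SU26, 60 of 100 genes changed 2-fold and 90 of 100 changed 4-fold were recovered, with 5 false calls over 9282 genes tested. There a gene had the same mean in all genotypes, apart from the changed genes in SU58. Changed genes were drawn only from those above a floor of counts, and no library held added transcripts of other tissues. Rates in the measured comparisons can therefore differ. Alternatives were DESeq2 1.42.0, RLE size factors, no filter, a replicate block, each library left out, and 2 libraries left out together. Replicate numbers were not treated as pairing libraries across genotypes, since the samples share only a number. Of 15 pairs of genotypes, 4 had same-numbered deviations correlated above 0.1 (range -0.22 to 0.32), which cannot exclude a shared batch.

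Values in each library are given for members called between parental lines with a 2-fold change and a mean of at least 1 CPM, and for the 3 highest per length. Ugt35A1, Ugt303A1, Ugt35D1 and Ugt49B2 were added outside that rule, after their values were seen. Other genes come from pathway lists, up to 3 each by adjusted p, and UGP, Pgm1, Galt, Hex-C and Mdr50 were added because they were called. The members and lists were chosen with earlier results of these data known. One listed transporter, slalom, was not matched and was not analysed here, Csat was matched as Ugalt, and ss did not pass the filter. Positions come from Ensembl's BDGP6 annotation, whose chromosome equals that of the files for 35 of 35 members.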

Additional observations from a re-analysis of the deposited data

How the results depend on the processing

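With RLE size factors, DESeq2 or no filter, the members called were 16, 18 and 14 for SU58 against SU26 (16 as reported), 12, 13 and 13 for ZI418N against SU26 (12), and 16, 15 and 16 for ZI418N against SU58 (16). Over all genes the counts were 1642, 1939 and 1489 (1639 as reported), 2213, 2427 and 2034 (2235), and 1570, 1789 and 1452 (1573). Called in each of the 17 settings were 7 of 16, 8 of 12 and 7 of 16 members, and no called member reversed. DESeq2 called 3 and 2 members against the parental mean in SU26xZI418N and SU58xZI418N (1 each as reported), and 8, 5 and 8 for SU26xZI418N against SU26xSU58, SU58xZI418N against SU26xSU58 and SU58xZI418N against SU26xZI418N (3, 3 and 4). Without the filter, SU26xZI418N against the parental mean had 2. In each of these DESeq2 comparisons, and in that one without the filter, the count over all genes rose as well. The added members are therefore not a gain of the family alone. The cause of these changes was not tested.

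Leaving out 1 library, the counts ranged from 7 to 17, 9 to 13 and 8 to 16 in the 3 pairs of parental lines, in the order above. They ranged from 0 to 1 against the parental mean in SU26xZI418N and in SU58xZI418N, and from 1 to 5, 0 to 5 and 0 to 5 in the 3 hybrid pairs. A genotype left with 1 library is assumed to vary like the others. Median positions ranged from 0.507 to 0.664 in SU26xSU58, 0.288 to 0.567 in SU26xZI418N and 0.312 to 0.431 in SU58xZI418N. Without SU58 replicate 1 and SU26xZI418N replicate 2 together, the counts were 7, 12 and 9 between parental lines, 0 and 1 against the parental mean in the ZI418N hybrids, and 1, 1 and 0 in the hybrid pairs; fewer libraries were fitted there.

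The samples share only a replicate number, which was not taken to pair them. With the replicate block the counts were 14, 12 and 16 between parental lines, 0, 0 and 1 against the parental mean, 0 outside both parents in each hybrid, and 2, 2 and 1 in the hybrid pairs. Over all genes, the block also lowered the count in each hybrid pair and for SU26xZI418N against the parental mean. It slightly raised that for ZI418N against SU26 and for SU58xZI418N against the parental mean. The 6 members with 42 counts or fewer over the 12 libraries did not pass the filter and are described by their counts.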

Other observations

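CG10175, a gene next to the Ugt303B genes on 3R that is no member of the family, was looked at after the values were seen. Its calls were not checked in the alternative settings. CG10175 had 12.6 and 10.0 CPM in SU26, 41.0 and 37.2 CPM in SU58, and 1.56 and 0.277 CPM in ZI418N. It had 24.3 and 7.98 CPM in SU26xSU58, 2.88 and 0.996 CPM in SU26xZI418N, and 10.5 and 24.9 CPM in SU58xZI418N. The replicates of SU26xSU58 and of SU58xZI418N differed in the same direction as those of Ugt303B3, Ugt303B1 and Ugt303B2. CG10175 was lower in ZI418N than in SU58 (log2 -5.41 ± 0.86 SE, edgeR's quasi-likelihood test, adjusted p = 0.00268) and than in SU26 (log2 -3.62 ± 0.83, adjusted p = 0.0127), and its difference of SU58 from SU26 did not pass (log2 1.79 ± 0.69, adjusted p = 0.111). None of the 3 Ugt303B genes passed for ZI418N against SU26, and whether CG10175 differs from them was not tested.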
